A study of Homo sapiens with 6 samples.

Results

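The cells compared here were HepG2, an established human hepatoma line, exposed to 100 µg/ml of an extract of Scutellaria baicalensis for 24 h, set against HepG2 cells exposed to the same dose for 12 h. Scutellaria baicalensis is a plant of the mint family whose root is used in traditional medicine. The 2 arrays belong to a set of 6 one-colour Agilent expression arrays that also holds cells exposed for 1, 3 and 6 h at this dose, and control cells for which the labels give no time. Each time had 1 array, so no difference here has a replicate check and no p-value is given. No control carried along to 12 or 24 h was analysed here, so time in culture and time in extract cannot be told apart. A gene belonged to the comparison when its probe was well above background and not saturated on both arrays. Of 17487 named genes on the array, 12453 met this, 292 were saturated on at least 1 of the 2 arrays, and 4742 were not well above background on at least 1 of them.

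Levels are log2 of the background-corrected signal after quantile normalization over the 6 arrays, and a difference is the 24 h level minus the 12 h level. The error of 1 gene is taken as 0.67, the SD that 4225 pairs of probes with a gene in common give for 1 probe. Cultures and whole arrays may vary beyond it, since both probes of a pair were read on the same arrays. A gene is said to have risen or fallen when it was at least 2-fold apart. Liver cell identity was plain on both arrays: all 10 hepatocyte markers, among them ALB and APOA1, were above background and 7 of the 10 were saturated on at least 1 of them. Defining markers of other lineages were not well above background on either array for blood cells (PTPRC and HBB), endothelium (CDH5, KDR and TEK) and fibroblasts (COL1A1, COL3A1 and LUM). Of the measured markers on these and an epithelial list, PECAM1 (-1.36) and RGS5 (-3.42) fell and KRT8 (1.18) rose. CD3E had -1.64 on one probe and 0.15 on another. PECAM1 and RGS5 had 5.19 and 8.21 at 12 h and at most 3.84 and 4.79 on the other arrays. Their falls thus rest on the 12 h array alone.

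Several systems that change in liver cells over hours are covered below. Metallothioneins are small cysteine-rich proteins that bind zinc and copper, and their genes are switched on by the zinc-sensing factor MTF1 and by stress hormones and oxidants. Glutathione transferases and cytochromes P450 process foreign compounds under receptors such as AHR, PXR and CAR. Replication-dependent histones are made mainly while DNA is copied, and SCD and the cholesterol enzymes answer to the SREBP factors, which sense membrane lipid.

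The 2 arrays differed in brightness, and this touches every result. At the 75th percentile of probes the processed signal was 768 in control cells, then 1090, 1900, 153, 420 and 1640 after 1, 3, 6, 12 and 24 h of extract. The share of probes well above background was 71.1% at 24 h and 64.4% at 12 h. Another bright and dim pair, the 3 h and 6 h arrays, shares no array with this comparison. Over the 10389 genes measured on all 4 arrays, the difference 24 h minus 12 h and the difference 3 h minus 6 h had a Pearson r of 0.65 and a Spearman rho of 0.67, as a description across genes that share their arrays' brightness. Among these genes, 355 were raised in both, which is 52.0% of the 683 raised at 24 h against 12 h and 34.6% of the 1027 raised at 3 h against 6 h. Lowered in both were 444, which is 59.2% of 750 and 30.4% of 1461. Only 9 genes raised at 24 h were lowered in the 3 h and 6 h pair, and 8 went the other way. The part of brightness in any 1 result was not tested, and the value of 3 h minus 6 h is given beside the results described most fully where the gene was measured on those arrays.

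**Figure D1:**
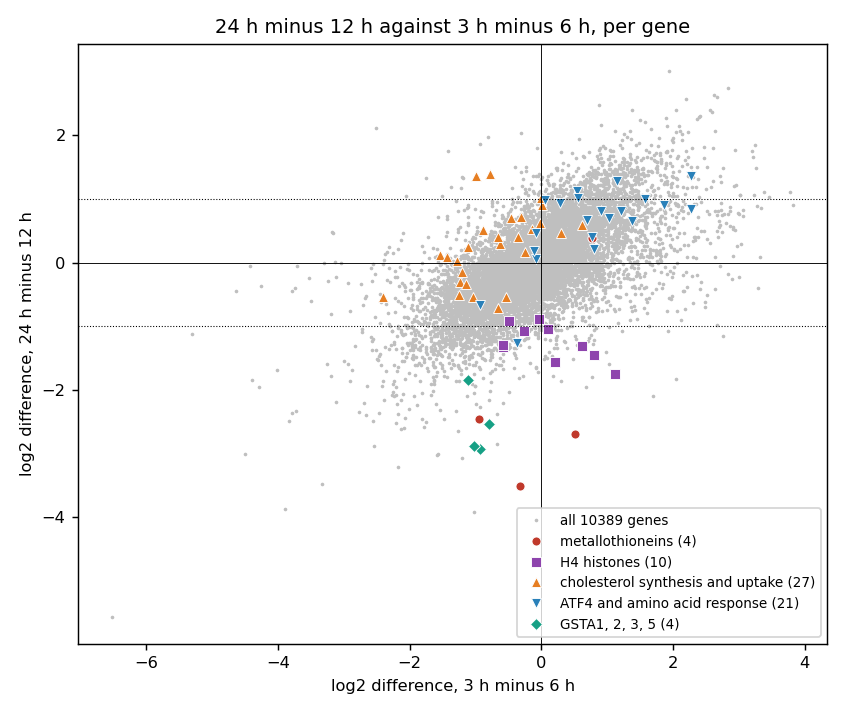
Log2 difference 24 h minus 12 h (vertical axis) against log2 difference 3 h minus 6 h (horizontal axis), 1 point a gene, for the 10389 genes measured on all 4 arrays, with 5 gene groups in colour and dotted lines at 2-fold. The cloud runs along the diagonal (r = 0.65), while MT1M, MT1F and the H4 histones lie below it.

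Across the 12453 genes, 1055 (8.47%) rose and 917 (7.36%) fell at 24 h against 12 h, together 15.8%. These shares are the ones to set beside the counts of every gene list below. The median difference was -0.01 and the quartiles were -0.46 and 0.47. At least 4-fold apart were 68 raised and 101 lowered genes. With the 75th percentile of each array as the scale in place of quantile normalization, 855 rose and 1614 fell, so the share of calls that were raised was 34.6% in place of 53.5%, and the median of all genes moved to -0.20. The 24 h level was the highest of the 6 arrays for 713 of the raised genes and the lowest for 494 of the lowered genes. A stricter count, chosen after the data were seen, kept genes whose 24 h level was also at least 2-fold beyond every one of the other 5 arrays: 76 were higher (0.61% of all measured) and 70 lower (0.562%). Among the genes lowered against 12 h, 690 of 917 were within 2-fold of the control array at 24 h, and among the raised 634 of 1055 were. The share of all measured genes within that limit was not counted, so these counts cannot be read as a return to control. Just inside the 2-fold limit lay EPHA1 at 1.0004 and CENPN at -1.0003, and just outside it GNAI2 at 0.9995 and ZNF205 at -0.9999.

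The metallothionein genes fell together. Of 12 on the array 9 were measured, and 8 of the 9 fell, with a list median of -2.45 against -0.01 for all measured genes. Sequences are shown for them, because the genes sit side by side on chromosome 16 and resemble each other so closely that a probe may read a neighbour. The MT1F and MT1M probes, whose levels are described first, are given by their first 30 bases. The MT1X and MT1H probes, given whole, overlap over 58 bases and differ there at 3, which are in capitals.
MT1F probe, bases 1 to 30: tgccaggacaacctttctcccagatgtaaa
MT1M probe, bases 1 to 30: ttttttcaatacgatactgagccatttgct
MT1X probe: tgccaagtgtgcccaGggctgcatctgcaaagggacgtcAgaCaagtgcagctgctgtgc
MT1H probe: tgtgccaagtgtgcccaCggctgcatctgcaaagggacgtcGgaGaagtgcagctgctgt
The longest run of bases that the MT1M probe shares with a probe of another metallothionein gene was 9, and for MT1F it was 19, against 23 for MT1X and MT1H. The differences of MT1X and MT1H are therefore not separate measurements. Other pairs are close too. The second MT1H probe has 50 bases identical to the MT1A probe and a shared run of 27. The brighter MT1E probe and the MT1B probe have 49 identical bases. The falls of these genes may thus not be independent of each other.

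Promoter sequence was at hand from RefSeq (GRCh38.p14) for MT1X, MT1H, MT1B, MT2A and MT4. The 250 bases before the gene start are printed for the first 3, which fell in this comparison, with matches to TGCACNC or TGCGCNC on either strand in capitals. This is the core of the metal response element that MTF1 binds.
MT1X, chr16:56682220-56682469, plus strand: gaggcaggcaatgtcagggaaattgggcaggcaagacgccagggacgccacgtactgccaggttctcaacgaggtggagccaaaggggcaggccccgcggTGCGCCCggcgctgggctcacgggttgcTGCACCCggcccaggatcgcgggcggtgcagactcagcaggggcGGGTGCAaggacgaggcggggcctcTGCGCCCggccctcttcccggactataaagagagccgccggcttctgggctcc
MT1H, chr16:56669564-56669813, plus strand: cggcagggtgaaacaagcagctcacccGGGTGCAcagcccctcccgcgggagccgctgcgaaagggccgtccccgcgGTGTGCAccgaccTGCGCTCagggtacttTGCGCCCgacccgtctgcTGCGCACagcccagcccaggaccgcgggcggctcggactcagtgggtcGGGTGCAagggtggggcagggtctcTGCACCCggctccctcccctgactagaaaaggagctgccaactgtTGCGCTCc
MT1B, chr16:56651636-56651885, plus strand: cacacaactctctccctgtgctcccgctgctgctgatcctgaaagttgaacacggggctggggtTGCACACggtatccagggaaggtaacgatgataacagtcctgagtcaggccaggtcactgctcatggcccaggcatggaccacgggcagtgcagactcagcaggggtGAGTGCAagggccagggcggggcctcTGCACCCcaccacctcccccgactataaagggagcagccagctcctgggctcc
MT1X held 4 matches, MT1H 8, MT1B 3, MT2A 7 and MT4 3. Of 35116 promoter windows of this length in the table, 24.8% held at least 1 match, 1.58% at least 3 and 0.370% at least 4. A match describes these letters and is not a measured binding site.

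Among the differences that could be measured, that of MT1M was the farthest below 0 under quantile normalization, while under the 75th percentile scaling MT1E had -3.86 and MT1M -3.77. The MT1M level was 12.39 in control cells, then 12.60, 13.22, 13.54, 13.17 and 9.66 after 1, 3, 6, 12 and 24 h of extract, a difference of -3.51 between 24 h and 12 h. The 24 h level lay 2.73 below the lowest of the other arrays on the log2 scale, and the other 5 arrays spanned little more than 1 unit. MT1F stood at 12.60 in control cells, then 12.68, 12.82, 12.31, 12.51 and 9.82 after 1, 3, 6, 12 and 24 h of extract, a difference of -2.70. Here the 5 earlier arrays were nearly level and the 24 h array alone stood apart. The fall was visible before any scaling: the MT1M processed signal was 1780 at 24 h and 6220 at 12 h, and that of MT1F 1960 at 24 h and 3820 at 12 h, although the 24 h array was the brighter one. Between the other bright and dim arrays, 3 h minus 6 h, MT1M had -0.32 and MT1F 0.51.

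MT1E fell by 3.04, with levels of 12.38 at 24 h and 15.42 at 12 h, although a dimmer probe of it had -0.66. The differences of MT1L and MT1B were -2.83 and -2.45. MT1X had -2.42 and -2.76 on its probes, and MT1H -2.40 and -2.65. MT1A fell by 2.15. All 8 lowered genes were also at least 2-fold below every one of the other 5 arrays, against 0.562% of all measured genes. MT1X was the closest, at 1.53 below the lowest of the other arrays. The 8 genes are not independent, since some have closely alike probes. Several of their probes were saturated at 3 h, where their levels are lower limits. The dimmer probe of MT1G had 10.32 at 24 h and 13.69 at 12 h, a difference of -3.37, and its brighter probe, saturated at 12 h, was at least 6.32-fold lower at 24 h. For MT2A, a widely expressed form, both probes were saturated at 12 h and were at least 2.65-fold and 2.83-fold lower at 24 h.

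MT3, a form known mainly from brain, did not share this pattern: it had 10.95 at 24 h and 10.56 at 12 h, a difference of 0.39, with -0.85 on a dimmer probe and -0.23 for the median of the 2. MT4 was not well above background at 12 h. The zinc exporter SLC30A1, another gene switched on by MTF1, had 11.66 at 24 h and 11.82 at 12 h, a difference of -0.17. MTF1 itself had -0.96. Among 24 measured zinc and copper genes 3 rose and 2 fell, with a median of -0.06. The risers were the zinc importers SLC39A6 (1.44) and SLC39A1 (1.08) and the transporter SLC30A9 (1.34), and those that fell were the copper chaperones ATOX1 (-1.41) and COX17 (-1.31). The values of ATOX1, COX17 and SLC39A6 at 3 h minus 6 h were -1.20, -1.03 and 1.63, of the same sign. For the metallothioneins measured on all 4 arrays, 4 genes with MT3 among them, the median of 3 h minus 6 h was 0.09 and that of 24 h minus 12 h -2.57.

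**Figure D2:**
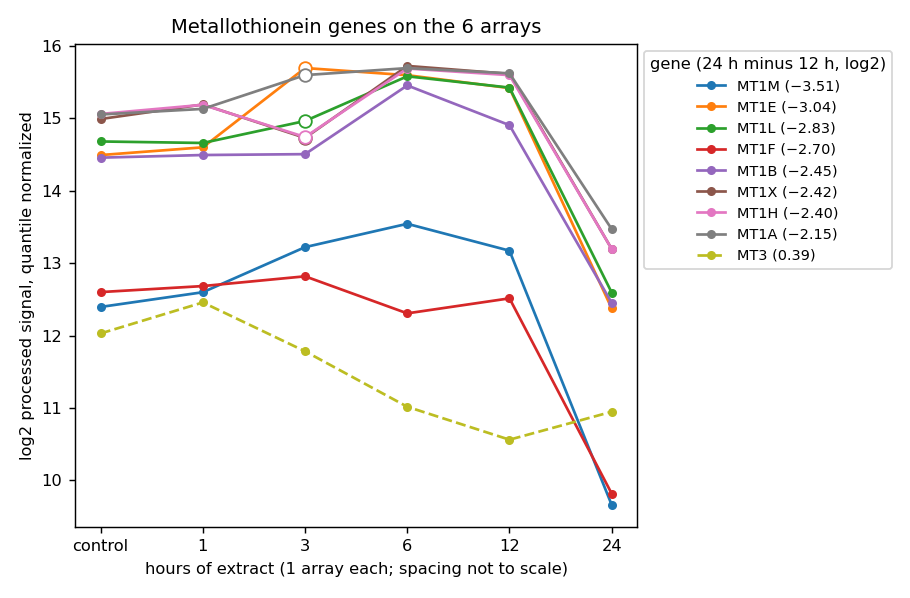
Log2 quantile-normalized signal (vertical axis) of the 9 measured metallothionein genes on the 6 arrays in order of time (horizontal axis, 1 array each), with open circles where the probe was saturated and the difference 24 h minus 12 h in the legend. All but MT3 drop at 24 h, with differences of -2.15 (MT1A) to -3.51 (MT1M).

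Alpha-class glutathione transferases, which join glutathione to foreign and oxidized compounds in the liver, fell as well. GSTA1 stood at 9.46 in control cells, then 9.07, 8.86, 9.79, 9.40 and 6.48 after 1, 3, 6, 12 and 24 h of extract, a difference of -2.92, which puts the 24 h signal at 0.132 of the 12 h signal. GSTA2 stood at 10.32 in control cells, then 10.41, 10.40, 11.21, 10.64 and 8.11 at those times, a difference of -2.53, with -1.97 on its second probe. In both genes the 24 h array was alone in being low, by more than 2 log2 units below the lowest of the others. GSTA5 (-2.89) and GSTA3 (-1.83), named after their values were seen, shared the pattern. The probes of GSTA2 and GSTA5 have 56 of 60 bases in common, so their readings are not independent, whereas those of GSTA1 and GSTA2 have 23. At 3 h minus 6 h GSTA1 had -0.93 and GSTA2 -0.80.

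The list of PXR and CAR targets, to which GSTA1 and GSTA2 belong, had a median of -0.87 over 10 measured genes, with 4 lowered and 1 raised. The drug-metabolizing enzymes CYP2B6 (-1.60, and 0.19 on another probe) and CYP3A7 (-1.27) were the other 2 that fell. ABCB1, the drug efflux pump P-glycoprotein, rose by 1.68, with 11.87 at 24 h and 10.19 at 12 h. Its 24 h level was the highest of the 6 arrays by 1.68, and at 3 h minus 6 h it had 0.85, of the same sign. Transporters of the list had 3 measured members, all above 0, and phase II enzymes 3, all below 0.

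Of the 12 targets and partners of AHR, the receptor for planar aromatic compounds, none rose and 2 fell, with a median of 0.06. AHRR, the repressor that AHR induces, had 4.26 in control cells, then 4.01, 5.64, 8.63, 7.82 and 6.27 after 1, 3, 6, 12 and 24 h of extract, a difference of -1.55. The second AHRR probe had -0.72, which is less than 2-fold. CYP1B1 fell by 1.51, with 4.40 at 24 h and 5.91 at 12 h. CYP1A1, the best known AHR target, had 10.48 in control cells, then 10.96, 13.38, 13.51, 14.02 and 13.86 at those times, a difference of -0.16. The CYP1A1 level at 24 h was thus within the probe error of the 12 h level under quantile normalization, but its difference was -0.73 under the 75th percentile scaling. On both arrays it was far above the control array, while AHRR and CYP1B1 lay between those levels. For AHRR the 3 h minus 6 h value was -2.99. Targets of NRF2, the factor for oxidant defence, had a median of 0.27 over 13 measured genes, with only TXNRD1 raised (1.15). GCLC, which catalyses the first step of glutathione synthesis, had -0.98 on one probe and 0.72 on another.

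Histone genes fell mostly in the H4 class, and in part among the linker histones. Of 50 measured replication-dependent histone genes 11 fell and none rose, with a median of -0.49. By class, H4 had 8 of 11 lowered and a median of -1.29, the linker histones 2 of 4 and -0.94, H2A 0 of 10 and -0.64, H3 0 of 10 and -0.28, and H2B 1 of 15 and 0.07. H4C4 stood at 12.81 in control cells, then 12.25, 11.63, 10.51, 10.48 and 8.74 after 1, 3, 6, 12 and 24 h of extract, a difference of -1.75. It was lower on each array than on the one before, by little between 6 and 12 h, and the 24 h array was the lowest. H4C13 had 12.70 at 24 h and 14.26 at 12 h (-1.56), and H4C2 11.80 at 24 h and 13.24 at 12 h (-1.45). All 11 measured H4 genes were below 0, between -1.75 and -0.49. At 3 h minus 6 h H4C4 had 1.12, of the other sign. H4C11 and H4C12, at -1.32 and -1.29, share a run of 37 bases between their probes and may read each other. The probes of H4C6 and H4C8 have 45 identical bases, as do those of H4C9 and H4C14. The differences of the H4 genes may thus not be independent of each other. The median of 3 h minus 6 h was 0.03 for H4 and 0.33 for the whole list, against -0.14 for all genes. Histone transcripts end in a stem-loop in place of a poly(A) tail. A list drawn up for other RNAs without such a tail had 3 measured members, MALAT1 at -0.22 with -1.37 on another probe, NEAT1 at 0.74 with -0.15 on another, and RNU12 at -0.14. Whether these probes, those of NEAT1 above all, read a form without a tail was not tested. At 3 h minus 6 h MALAT1 had 2.29 and NEAT1 0.70. Any part of poly(A)-based labelling was not tested.

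Genes of the DNA copying phase included a few that fell. Of 29 DNA replication genes 4 fell and 1 rose, with a median of -0.08. RRM1 (-1.05) supplies nucleotides, CDC6 (-1.39) and GINS2 (-1.07) prepare and start replication forks, and FEN1, which trims lagging-strand primers, rose by 1.27. E2F2, a driver of these genes, had -1.53 on one probe and -0.19 on another. FANCD2, a DNA crosslink repair factor, fell by 2.26 and by 1.09 on its probes and had -0.93 at 3 h minus 6 h. Of 29 mitosis genes 4 rose and 1 fell: the spindle factor TPX2 (1.57), the cytokinesis protein ANLN (1.13), TOP2A (1.08) and the kinase NEK2 (1.07, on the brighter of its probes) rose, and NDC80 had -1.23 on one probe and 0.48 on another. The same genes had 3 h minus 6 h values of the same sign: 1.35 for TPX2, 2.19 for TOP2A and -1.19 for CDC6. Of 15 measured G1 regulators 1 rose and 3 fell. The kinase inhibitor CDKN2B rose by 1.35, and its relatives CDKN2C and CDKN2D had -1.01 and -1.08. The 24 h level of CDKN2B, 7.87, was 1.35 above the highest of the other arrays.

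Some lipid genes rose at 24 h, where 8.47% of all measured genes did. SCD, which puts the double bond into newly made fatty acids, had 11.29 in control cells, then 11.85, 12.29, 11.42, 11.59 and 14.07 after 1, 3, 6, 12 and 24 h of extract, a difference of 2.48. Only the 24 h array was high, by 1.78 above the next. Its probes did not agree, since another had -0.62, and the median over its probes was 0.85. SCD had 0.87 at 3 h minus 6 h, of the same sign.

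Of 27 cholesterol genes 3 rose and none fell, with a median of 0.29, which turned to -0.06 under the 75th percentile scaling, where all genes had -0.20. Among the 3 were HMGCS1 (1.36, and 0.03 on another probe), an early enzyme of the pathway, and SC5D (1.02, and 0.43 on another probe), a late step of it. CYP51A1, which removes a methyl group from lanosterol, had 0.91 on one probe and -0.09 on another, and NSDHL had 0.40. NSDHL stood at 6.48 in control cells, then 7.47, 8.08, 8.73, 8.90 and 9.30 after 1, 3, 6, 12 and 24 h of extract, a level higher on each array than on the one before. For this list the median of 3 h minus 6 h was -0.66, of the other sign.

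Of 22 fatty acid and triglyceride genes 5 rose and 1 fell, with a median of 0.10. Beside SCD the risers were AGPAT2 (1.75), which adds the second fatty acid to the glycerol backbone, PLIN2 (1.68), the coat of lipid droplets, ELOVL6 (1.33), which lengthens palmitate, and ACACB (1.08). PLIN2 had 14.54 at 24 h and 12.86 at 12 h, and ELOVL6 10.04 at 24 h and 8.72 at 12 h. PLIN2 had 1.09 and ELOVL6 0.30 at 3 h minus 6 h, of the same sign. SCD, ELOVL6, PLIN2 and SC5D were all at least 2-fold above every one of the other 5 arrays, as were 76 of all 12453 genes. FADS2, the delta-6 desaturase, fell by 1.24 and by 0.87 on its probes, and had -1.96 at 3 h minus 6 h. None of 19 genes of fatty acid oxidation and ketone production rose or fell, with a median of 0.11. In glucose production G6PC1, which releases free glucose, fell by 1.65 and by 1.11 on its probes, while PCK1, an earlier step of the same pathway, rose by 1.45 and had 0.67 on its second probe. G6PC1 had 7.78 at 24 h and 9.43 at 12 h, and PCK1 10.01 at 24 h and 8.56 at 12 h, with 10.15 on the control array. At 3 h minus 6 h G6PC1 had -0.08 and PCK1 0.31.

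**Figure D3:**
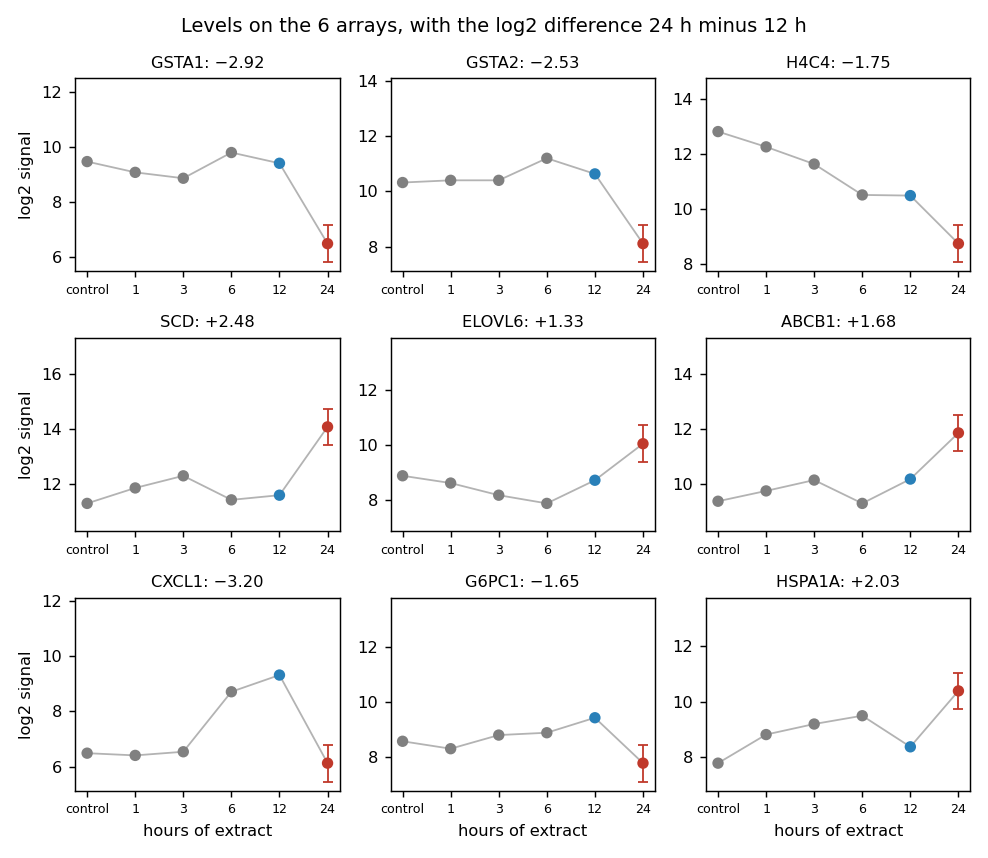
Log2 quantile-normalized signal (vertical axes, each panel spanning 7 units) of 9 genes on the 6 arrays in order of time (horizontal axes, 1 array each), with 12 h in blue, 24 h in red and the others grey. The bar at 24 h is the probe error of a difference, 0.67 (SD). The 24 h point is the lowest in the panels of GSTA1, GSTA2, H4C4, CXCL1 and G6PC1 and the highest in those of SCD, ELOVL6, ABCB1 and HSPA1A.

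Secreted signals and their targets moved in both directions. Of 14 targets of TGF-beta and BMP 5 rose and 2 fell, with a median of 0.37. CCN2, a matrix-associated growth factor, rose by 1.66 to 11.72 at 24 h, against 10.06 at 12 h and 11.34 on the control array. The feedback inhibitor SMAD6 rose by 1.81, TGFB1 by 1.22 and ID2 by 1.14 on one probe, with -0.13 on another. HAMP, which encodes the iron hormone hepcidin and answers to BMP, fell by 2.20, with 7.32 at 24 h and 9.52 at 12 h and -0.58 at 3 h minus 6 h, and the repressor SKI had -1.73 on one probe and 0.06 on another. HFE, the partner of the transferrin receptor in iron sensing, had -1.99 on its brightest probe and up to 0.30 on others.

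Among 19 NF-kappaB targets 3 rose and 2 fell, with a median of 0.06 that was -0.38 under the 75th percentile scaling. The neutrophil chemokine CXCL1 had 6.48 in control cells, then 6.40, 6.54, 8.72, 9.32 and 6.12 after 1, 3, 6, 12 and 24 h of extract, a difference of -3.20. It was high on the 6 h and 12 h arrays alone and was back at the control level at 24 h. CXCL2 had 9.03 at 24 h and 10.75 at 12 h, a difference of -1.72 with -0.86 on its second probe, and was high at 12 h alone. CXCL8, a chemokine of the same class, rose by 1.06, NFKBIZ by 1.42 and the subunit NFKB2 by 1.08. The 3 h minus 6 h values were -2.18 for CXCL1 and -0.06 for CXCL2. Among 18 interferon-response genes 2 rose and 2 fell, with IFI27 at -1.64 and -1.31 on its probes.

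Of the stress lists, that of ATF4 was shifted upward. The targets of ATF4, which raises amino acid supply when protein synthesis is impaired, had a median of 0.81 over 21 measured genes, 19 of them above 0, with 5 raised and 1 lowered. The tRNA ligases CARS1 and AARS1 rose by 1.37 and 1.29, CEBPB by 1.13 on one probe with -0.65 on another, and PSPH, which makes serine, fell by 1.26. The list's median of 3 h minus 6 h was 0.78, as large, and under the 75th percentile scaling its median was 0.34. Of 22 endoplasmic reticulum folding genes 3 rose and 2 fell, with a median of -0.08: PDIA6 (2.07) and PDIA3 (1.17) form disulfide bonds, and SDF2L1 and CRELD2 fell by 1.20 and 1.15. HSPA5, the main chaperone there, had 1.69 on one probe and -1.78 on another, so it has no settled direction. PDIA4 had 12.59 in control cells, then 13.26, 11.26, 7.43, 7.94 and 8.84 after 1, 3, 6, 12 and 24 h of extract, a difference of 0.90. HSPA1A, the inducible heat shock protein of the cytosol, rose by 2.03 and by 1.66 on its probes and had -0.30 at 3 h minus 6 h. It stood at 7.76 in control cells, then 8.80, 9.18, 9.49, 8.36 and 10.39 at those times, so that 24 h was the highest and 12 h the lowest of the exposed arrays. It was the only riser among 13 measured heat shock genes.

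The remaining lists each held a few genes that passed 2-fold, where 8.47% of all measured genes rose and 7.36% fell. Of 24 measured respiratory chain genes 3 rose and 5 fell, with a median of -0.20 that moved to -0.83 under the 75th percentile scaling, and the falls were in NDUFB3 (-1.45), NDUFA2 (-1.37), NDUFA1 (-1.24), COX7B (-1.18) and COX6C (-1.16), small subunits of complexes I and IV. For NDUFB3 the 3 h minus 6 h value was -1.58 and for COX7B -0.05. Of 16 clock genes 4 rose and none fell: CRY1 (1.62, and 0.12 on another probe), BHLHE40 (1.47), NR1D2 (1.40 and 1.89) and CLOCK (1.32), with a median of 0.04. Of 24 hypoxia genes 3 rose and 1 fell, with NDRG1 at 1.30 and its second probe higher still. Of 16 WNT targets 4 rose, among them GLUL (1.31) and LGR5 (1.20), and 2 fell, with a median of 0.38 against 0.72 at 3 h minus 6 h. Of 25 immediate early genes 2 rose and 1 fell, with FOS at 1.07, EGR1 at 0.99 and the median at 0.51, against 0.53 at 3 h minus 6 h. MYC had 12.85 at 24 h and 12.32 at 12 h, a difference of 0.53, with -2.87 on another of its 3 probes. In 23 p53 targets CCNG1 (1.42) alone rose, and in 26 autophagy and lysosome genes SQSTM1 (1.63), a cargo receptor, alone rose. Ribosome biogenesis had 1 riser of 28, the proteasome 1 riser and 2 that fell of 24, and apoptosis regulators 1 riser and 2 that fell of 27. Among 22 measured secreted liver proteins FGA (1.41, and 1.44 and 0.22 on its other probes) rose and TTR (-1.10) fell, and 13 more were saturated. Of 8 measured acute phase genes 1 rose and 2 fell, 6 of them lay below 0, and their median was -0.78, against -0.77 at 3 h minus 6 h.

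**Figure D4:**
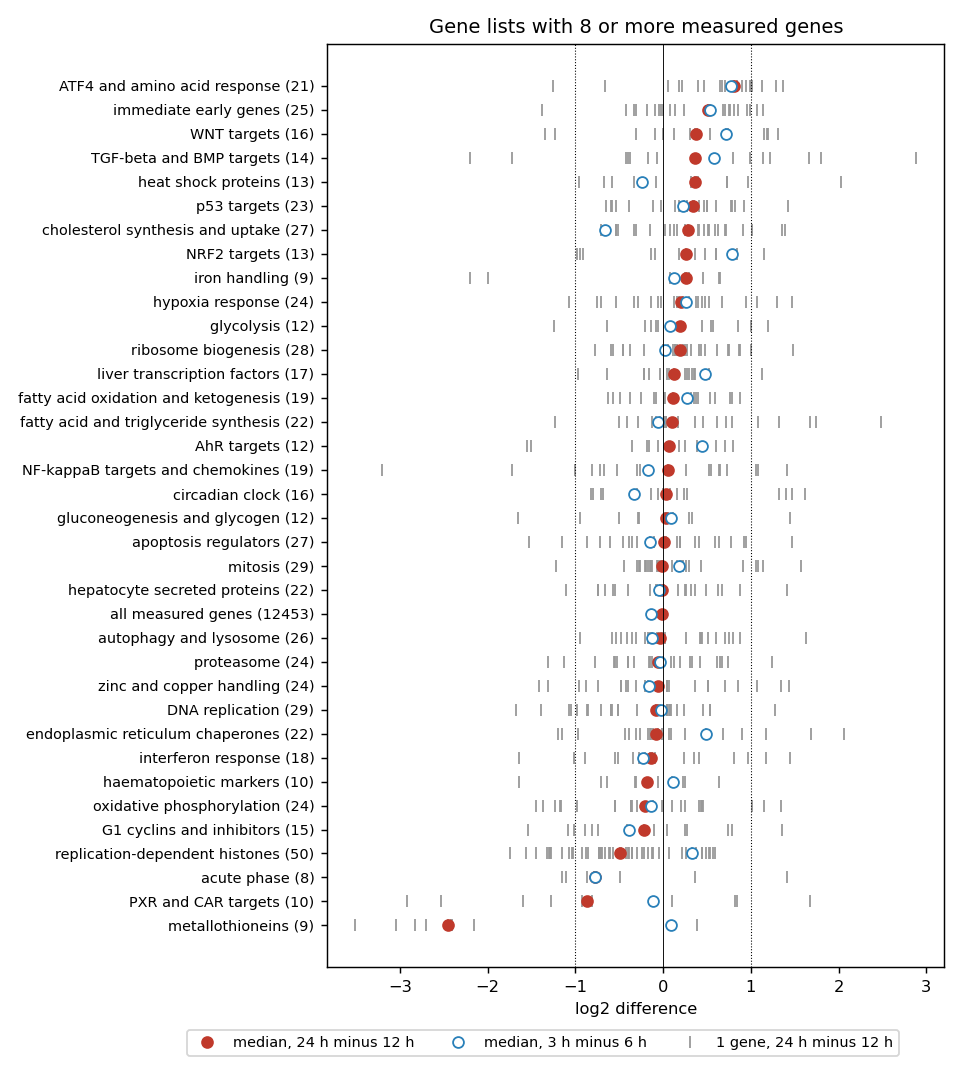
Log2 differences (horizontal axis) of the gene lists with at least 8 measured genes, with the number measured in brackets: grey ticks are single genes at 24 h minus 12 h, filled circles the list median of 24 h minus 12 h and open circles the list median of 3 h minus 6 h. Metallothioneins stand farthest from 0 with a median of -2.45, and the ATF4 list has nearly the same median in both pairs (0.81 and 0.78).

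Genes with several probes allow a check within the arrays. Of 4188 such genes 309 rose by their brightest probe, and in 95 of these every measured probe rose. Likewise 290 fell, and in 38 every probe did. The 12 most raised of the 95 were IGFBP3 (2.60), SPAG1 (2.53), FOXK1 (2.39), HNRNPCL1 (2.25), XPOT (2.14), RALB (2.14), CCNT2 (2.04), HSPA1A, FOXO3 (1.95), AIDA (1.93), TBC1D5 (1.90) and NEDD1 (1.86). IGFBP3, a carrier of insulin-like growth factors, had 10.94 at 24 h and 8.34 at 12 h, and 9.20 on the control array. XPOT, which exports tRNA from the nucleus, had 12.56 at 24 h, 10.42 at 12 h and 12.07 on the control array. FOXO3, a factor that insulin signalling restrains, had 9.37 at 24 h, 7.42 at 12 h and 8.80 on the control array. For these 3 genes the 3 h minus 6 h values were 2.68, 2.10 and 2.01, about as large as their differences here. NEDD1, a centrosome protein, had 6.61 at 24 h, 4.75 at 12 h and 7.25 on the control array, and -0.94 at 3 h minus 6 h.

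The 12 most lowered genes on every probe were GSTA2, MT1X, MT1H, FANCD2, AKIP1 (-2.07), TRPV1 (-2.04), LSM3 (-1.86), G6PC1, IFI27, MBL2 (-1.61), RMDN2 (-1.57) and TCOF1 (-1.54). TRPV1, the capsaicin receptor, had 8.47 at 24 h and 10.51 at 12 h, with 8.81 on the control array. MBL2, the mannose-binding lectin of the complement system, had 9.89 at 24 h, 11.50 at 12 h and 10.00 on the control array. TCOF1, a factor of ribosomal RNA synthesis, had 12.26 at 24 h, 13.80 at 12 h and 12.51 on the control array. In TRPV1, MBL2 and TCOF1 the 24 h level was close to the control and the 12 h level stood above both, as the 6 h level did. These 3 genes had -2.26, -1.03 and -2.12 at 3 h minus 6 h, of the same sign.

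Among genes with 1 measured probe the largest rises included ZNF140 (3.45), SARAF (3.00), CAP1 (2.73), KANSL2 (2.73) and SERPINI1 (2.69). SARAF, which limits calcium entry after stores empty, had 12.08 at 24 h, 9.07 at 12 h and 9.98 on the control array, and was 1.28 above the highest of the other arrays, with 1.95 at 3 h minus 6 h. CAP1, an actin regulator, had 12.45 at 24 h and 9.72 at 12 h, and 2.84 at 3 h minus 6 h. The largest falls were TMEFF2 (-5.55), NTF3 (-4.28), MAB21L2 (-3.92), TTYH2 (-3.87), MYCNOS (-3.72) and MT1M. TMEFF2 had 7.44 in control cells, then 6.61, 5.34, 11.85, 10.46 and 4.91 after 1, 3, 6, 12 and 24 h of extract, and its second probe was not measured. It had -6.52 at 3 h minus 6 h. Whether this probe reads TMEFF2 or another RNA was not tested. NTF3, a neurotrophin, had a level of 8.19 at 12 h, whereas the other 5 arrays gave 1.93 to 3.91, so its fall rests on the 12 h array alone.

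Genes above background on only 1 of the 2 arrays have a bound and no difference. At 24 h alone 1107 genes were above background, 183 of them with a bound of at least 2-fold, and at 12 h alone 207, with 190 past that bound. The largest bounds upward were PHACTR3, at least 20.8-fold higher at 24 h, SERPINB5 (at least 18.5-fold), KIAA0087 (at least 13.02-fold) and CTSW (at least 12.8-fold). Downward they were MYF5, at least 40.9-fold lower at 24 h, STAB1 (at least 31.4-fold), HS3ST2 (at least 24.7-fold) and OR4N4 (at least 24.5-fold). These 4, among them a muscle lineage factor and an odorant receptor, were above background on the 12 h array only. Probes at least 8-fold above all the other arrays numbered 22 at 24 h and 107 at 12 h, against 188 at 6 h and 3 to 11 on the remaining arrays. The 2 dimmest arrays thus held most probes that were high on 1 array alone, and the part of this in the falls of such genes was not tested.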

How the data were processed

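HepG2 RNA was amplified, labelled and read on one-colour Agilent arrays, per the labels' protocols. Cy5 is the dye given there, but the columns are those of the green channel, per the file headers. The deposited intensity values per spot include a background-corrected processed signal that was not normalized between arrays. The authors' deposited value table holds linear intensity as well and was used as an alternative. For scanner software version, array design and probe genome build, the sources used here give nothing. The labels' RNA protocol also mentions mouse liver, but all samples here are labelled HepG2. No column of per-sample values was left unmapped (0).

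Processed signals were quantile normalized over the 6 arrays with limma 3.58.1 in R 4.3.3 and taken as log2. Control spots and outlier spots were removed, and 40895 of 41000 probes remained. Names came from RefSeq (GRCh38.p14): 23429 by their accession, 411 by another accession, 2007 by gene name and 961 by an older name, while 20 had several genes and 14172 none. A gene stands by its brightest probe. For repeated spots of 264 probes the SD of log2 signal was 0.064 to 0.085 per array. The number of arrays limits precision. The self-test on simulated data recovered its changed genes.

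Named genes were the 12 most raised and 12 most lowered with every one of several probes at least 2-fold apart, the 6 and 6 most changed with 1 probe, up to 4 members of each of 40 lists with the largest differences, a fixed set with all metallothioneins, and the 4 largest bounds each way. A bound sets the bright array's level against the lowest level among probes well above background on the dim array, or the probe's own level where that is higher. For a saturated probe it is the plain difference. Some genes meeting these rules are left out of the text. A few further list members that passed 2-fold are named too, chosen after their values were seen. The members and lists were chosen with earlier results of these data known. Alternatives were 75th percentile scaling, cyclic loess, quantile normalization of the 2 arrays alone, normexp background (offset 50), the deposited table, no filter on dim or saturated probes, and the median over a gene's probes.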

Additional observations from a re-analysis of the deposited data

How the results depend on the processing

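The counts of genes at least 2-fold apart depended on the treatment of dim signal and on scaling. Normexp background correction gave 381 raised and 422 lowered genes, and no filter on dim probes 1797 and 1460. With 75th percentile scaling 1614 genes were lowered, and the metallothionein median was -3.42. Requiring 24 h to lie 2-fold beyond every other array, an alternative added after seeing the data, left 76 and 70. Under the other alternatives the counts stayed within 1.5 times and the metallothionein median between -2.42 and -2.56. HSPA5 turned to -0.043 with the median over probes, where its 2 measured probes opposed each other. Of 1504 values of single genes under alternatives, 1435 moved by less than the probe error and 69 by more. The sign turned under at least 1 alternative for 6 of 188 genes, of which HSPA5 alone was at least 2-fold apart. Of 312 list medians 264 moved by less than the error of a mean over the list and 48 by more, and 19 of 39 lists, none with a median 2-fold from 0, took the other sign under at least 1 alternative. GSTA1 had -1.87 under normexp. No paired analysis was possible because each time had 1 array, and for the same reason no array could be left out. In 5 classes of equal size by brightness, 22.1% of the dimmest genes were at least 2-fold apart and 11.2% of the brightest. The error was not measured by class.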

Other observations

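Outside the lists, the genes whose 24 h level was at least 2-fold beyond all 5 other arrays held further liver and growth genes, named here after their values were seen. CYP8B1, which sets the balance of bile acids, had 6.26 at 24 h and 7.97 at 12 h, and the other arrays lay between 8.22 and 9.22. The urea cycle enzymes ARG1 and OTC fell by 1.65 and 1.31. UHRF1, which keeps DNA methylation through replication, fell by 1.86, with 8.87 at 24 h, 10.73 at 12 h and 11.42 on the control array. Its second probe had -0.79. The pseudogene MT1JP fell by 2.84, next to its metallothionein relatives, and its probe may read them. Upward were AREG and EREG, ligands of the EGF receptor: AREG had 14.14 at 24 h and 12.83 at 12 h, with 11.17 to 12.21 on the other arrays, and EREG 6.43 at 24 h and 4.99 at 12 h. The protease receptors PLAUR (1.08) and F2RL1 (2.55) and the acyl-CoA synthetase ACSL5 (2.07) also rose. ACSL3, another acyl-CoA synthetase, had 1.45 on its brighter probe and -0.31 on the other.

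Differences varied with the length of the gene in the genome, by RefSeq. With 12451 genes in 5 classes of equal size, the shortest had a median of -0.17, with 5.74% raised and 11.04% lowered, and the longest a median of 0.08, with 11.3% raised and 4.82% lowered.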
